A study of Mus musculus with 8 samples.

Results

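MicroRNA genes named at regions of changed H3K27me3 are described here. The 10 members described, among 333 gene names in the authors' deposited table, were named by 7 of its 378 regions: Mir193a, Mir365-2, Mir203, Mir3073a, Mir3073b, Mir5135, Mir6363, Mir6996, Mir7092 and Mir8109. They were chosen by their names in the overlap or flanking fields of a table that lists only regions past a false discovery rate (FDR) of 0.05, so their own changes are given as a description and without a test. Names starting with Mir occurred at 15 listed regions, the 7 included. Mir3084-2 and Mir692-2 were left out, since RefSeq places them far from the regions that name them. H3K27me3 (trimethylated lysine 27 of histone H3) was profiled by chromatin immunoprecipitation and sequencing in jejunal crypt epithelial cells of female mice. The 4 control samples (genotype label Control/WT) and the 4 DKO samples (Kdm6a/Kdm6b knockout) were both taken 7 days after ablation was induced. Kdm6a and Kdm6b encode demethylases that remove this mark. The labels state neither what drives the ablation nor whether each sample came from its own animal.

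The table gives 1 value per region for the whole comparison. No replicate spread, library depth or standard error could be seen, and the labelled cell type could not be checked against its markers, since no level of the mark is given for any sample. The table calls regions up or down without naming the reference group. Up is taken to mean more mark in DKO by the usual convention only. In a bulk sample, a change in the share of cells that carry the mark cannot be told apart from a change in the amount of mark per cell. The microRNAs themselves were not measured.

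MicroRNAs are cut from hairpin transcripts by Drosha and then Dicer, and the mature strand guides an Argonaute protein to messenger RNAs that pair with its seed, bases 2 to 8. MicroRNA genes lie alone, in clusters that may share a transcript, or inside a host gene whose transcript can carry the hairpin when both are on the same strand. H3K27me3, placed by Polycomb repressive complex PRC2, marks silenced genes and covers microRNA genes as it does protein-coding ones. miR-203 is known for limiting the growth of epidermal progenitors, and miR-193a and miR-365 are studied as inhibitors of tumour cell growth.

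All 10 hairpins were found in RefSeq (GRCm38.p6), which gives 17 mature strands for them. The strands below are the conserved products of the genes at the up regions on chromosomes 11 and 12, shown because their targets are read from the seed, which is in capitals. RefSeq places miR-193a-3p at chr11:79712009-79712030 (+), miR-365-3p at chr11:79726467-79726488 (+) and miR-203-3p at chr12:112130927-112130948 (+).
miR-193a-3p: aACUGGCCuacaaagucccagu
miR-365-3p: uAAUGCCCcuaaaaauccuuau
miR-203-3p: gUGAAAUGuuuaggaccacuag

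For the other members 1 mature strand each is printed next, with the seed again in capitals. They are shown because the members share almost no seeds: the 17 strands carry 16, and only 1 seed occurs in 2 members.
miR-3073a-5p: gUGGUCACaguuggcgccagcc
miR-3073b-5p: aUGGUCACaguggacaucaacc
miR-5135: aGGUCUAGguggcaagggcguccu
miR-6996-5p: uGCACAGGacagagcacaguc
miR-7092-3p: uGUUCUUUguuuuguuugccuuag
miR-6363: uGUAGACUggacuguccucaaa
miR-8109: gCGCCGCGugccggccgcggg

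The shared seed is that of miR-3073a-5p and miR-3073b-5p, and of the 1738 mature strands in the RefSeq table no others carry it. Their bases match without a break for 10 positions from base 2, and they differ at 6 of 22 positions, among them G1A and U12G (miR-3073a-5p first, counted from the 5′ end). The hairpins come from opposite strands of the same stretch of chromosome 12. The 60 bases of the Mir3073b hairpin at chr12:112109250-112109309 (-) are the exact reverse complement of bases 13 to 72 of the 85-base Mir3073a hairpin at chr12:112109238-112109322 (+), which are in capitals here.
Mir3073a: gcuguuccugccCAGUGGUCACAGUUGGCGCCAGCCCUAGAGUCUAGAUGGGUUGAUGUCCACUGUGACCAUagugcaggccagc
Mir3073b: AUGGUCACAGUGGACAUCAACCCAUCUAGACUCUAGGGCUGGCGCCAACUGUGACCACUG

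Of the 7 regions, 5 were up, naming 8 members, and 2 were down, naming Mir6363 and Mir8109. The FDR values of the table imply 58963 regions tested, of which 0.641% are listed, 0.438% as up and 0.204% as down. The members were found through that list, so nothing is read from their number. The up share was 71.4% of the 7 regions and 68.3% of all 378. In the authors' deposited table the absolute log2 fold change ran from 0.78 to 1.18, with a median of 0.93, against a median of 0.94 over all listed regions. By size of change they were spread through the list: the up regions of Mir6996, Mir203, Mir7092, Mir5135 and Mir193a ranked 24, 49, 153, 211 and 237 of 258, and the down regions of Mir6363 and Mir8109 ranked 43 and 113 of 120.

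**Figure D1:**
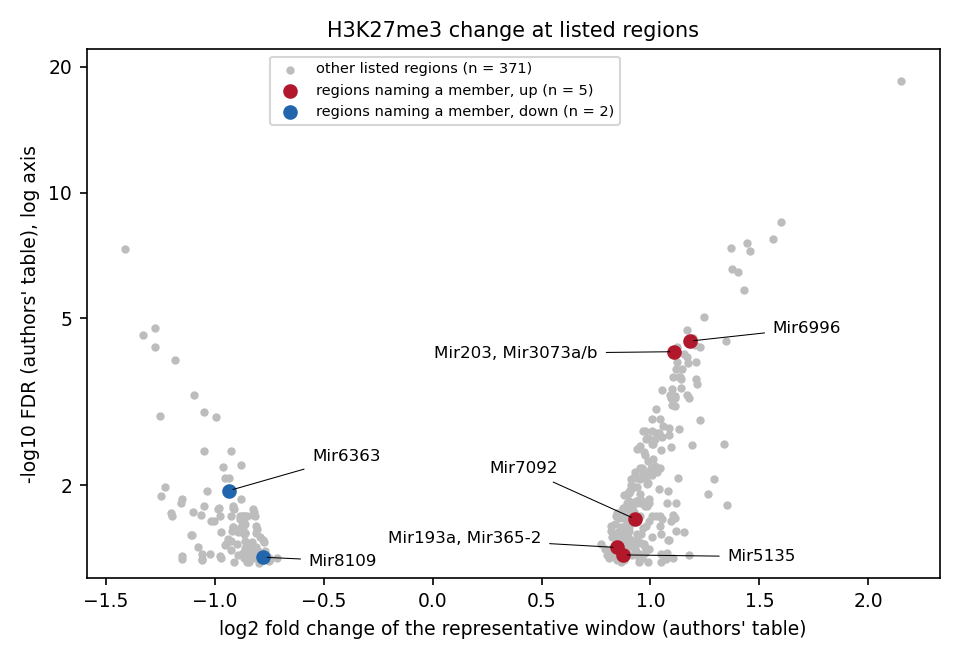
Each point is 1 region of the authors' deposited table, with its log2 fold change on the x axis and -log10 of its FDR on a log-scaled y axis. The 5 up regions (red) and 2 down regions (blue) that name a member are labelled among the other 371, and the Mir6996 and Mir203 regions stand above the other 5.

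The lowest FDR values were those of the regions that name Mir6996 and Mir203. They ranked 17 and 22 among 378 by FDR, while the Mir6363, Mir7092, Mir193a, Mir5135 and Mir8109 regions ranked 117, 200, 289, 333 and 345. The Mir8109 region came closest to the limit, at 0.0453 per the authors' deposited table. Regions just outside the limit are not listed, so no value can be given for them. In distance, Mir6996 was the member nearest to the edge of what the table names: its hairpin lay 4882 bp from its region, and the largest flanking distance in the whole table was 4989 bp.

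Mir203 lay outside its region rather than in it. The up region at chr12:112105001-112128500 ended 2380 bp before the Mir203 hairpin, which RefSeq places at chr12:112130880-112130955 on the plus strand. The authors' deposited table gave the region a log2 fold change of 1.11 (2.16-fold) with an FDR of 6.84e-05. Of its 125 windows 119 were counted as up and 0 as down, or 95.2% in 1 direction. The table marks Mir203 with the letter P, read as promoter. The 29 entries of the table that carry this letter alone together with a distance lay 109 to 2909 bp from their regions, so the letter reaches sequence well ahead of the gene. The region therefore covered DNA upstream of the Mir203 hairpin, and the hairpin itself was not in it.

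The same region held the whole of Aspg, which encodes an asparaginase, and the paired hairpins Mir3073a and Mir3073b printed above. Both lie inside Aspg, the nearer end of Mir3073a being 2555 bp from its start. Mir3073a is on the same strand as Aspg, so Aspg is its host gene, and Mir3073b is on the opposite strand. Mir203 lies beyond the end of Aspg by 3307 bp and 21.6 kb from Mir3073a. It is thus no part of Aspg as RefSeq draws it. All 3 members share 1 region and 1 set of windows, so they count as 1 observation of H3K27me3. The 300 bases around the start of Aspg, inside the region, held 3 CpG dinucleotides (the letters CG, the same on both strands), and 76.7% of the 32851 RefSeq promoter windows of this length held as many or more.

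Mir193a and Mir365-2 form a cluster and have no host gene in their row. The up region at chr11:79703001-79723500 contained the Mir193a hairpin (chr11:79711969-79712034, plus strand) at 9.0 kb from its left edge. Mir365-2 (chr11:79726400-79726511, plus strand) lay 14.4 kb further on and 2900 bp beyond the region, and, like Mir203, it carries the letter P. In the authors' deposited table the log2 fold change was 0.85 (1.80-fold) with an FDR of 0.0382. Only 29 of 113 windows (25.7%) were counted as up and 0 as down. The region began 4978 bp past the end of Rab11fip4, which encodes an effector of the small GTPase RAB11, per the authors' deposited table. The region thus holds Mir193a and ends ahead of Mir365-2, and where in it the counted windows lie is not given.

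Mice have a related cluster on chromosome 16, Mir193b and Mir365-1 (chr16:13449523-13453926). No listed region fell within 5 kb of it. Its mature strands are close to those of the chromosome 11 cluster: miR-193b-3p has the same seed as miR-193a-3p and differs from it at 3 of 22 positions (U9C, A20G and G21C, miR-193a-3p first, counted from the 5′ end). Mir365-1 and Mir365-2 give the same miR-365-3p, identical at all 22 positions. The table lists only regions past its limit, so whether the 2 clusters differ in their change of H3K27me3 was not tested.

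Mir6996 lies inside Notch1, the receptor gene that steers crypt progenitors toward the absorptive fate, on the same strand and 33.7 kb from its start. RefSeq places the hairpin at chr2:26470059-26470119 (minus strand). The up region, chr2:26475001-26503500, covered 62.1% of Notch1, toward its start, and ended 322 bp short of the RefSeq start. In the authors' deposited table its log2 fold change was 1.18 (2.27-fold), the largest of the 7, and 150 of 152 windows (98.7%) were counted as up. The hairpin is in the part of Notch1 that the region left out, 4882 bp away, and it is the only member named in a flanking field alone. The letters the table gives Notch1 include P, read as promoter above. What the table measures here is thus the part of the host gene toward its start and not the microRNA.

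Mir7092 lies inside Fam50a on the X chromosome, on the same strand. Fam50a encodes a nuclear protein linked to splicing. The up region at chrX:74296501-74327500 was the widest of the 7, with 31.0 kb, and covered Fam50a and Atp6ap1 in full. Atp6ap1 encodes an accessory subunit of the vacuolar proton pump. The start of Plxna3, a semaphorin receptor gene, lay 790 bp beyond the region in RefSeq. The authors' deposited table marks Plxna3 with the letter P alone and puts it 1566 bp away. The Mir7092 hairpin (chrX:74317362-74317429, plus strand) was 4329 bp from the start of Fam50a. In the authors' deposited table the log2 fold change was 0.93 (1.90-fold), the FDR was 0.0219 and 60 of 177 windows (33.9%) were counted as up. The region thus spans several gene bodies, and its value cannot be assigned to the microRNA or to any 1 of them. The 300-base start windows of Atp6ap1 and Fam50a, both inside the region, held 17 and 22 CpG dinucleotides, against a median of 7 over all promoter windows. Those numbers were reached by 31.4% and 23.1% of promoter windows.

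Mir5135 stands alone, outside any gene named in its row, but only 91 bp from the start of Plekhg3. The 2 are on opposite strands and point away from each other. The hairpin (chr12:76533134-76533212, minus strand) was inside the up region at chr12:76510501-76537500, which reached 22.8 kb ahead of the Plekhg3 start and 4.2 kb into the gene. The log2 fold change was 0.88 (1.83-fold) at an FDR of 0.0435, per the authors' deposited table. It had the lowest share of changed windows of the 7, with 18 of 149 (12.1%) counted as up. Another up region began 8.0 kb further into Plekhg3, at chr12:76545501-76549500, with 10 of 14 windows up, and the authors' deposited table gives it a log2 fold change of 0.90. Which part of the wider region holds the counted windows is not given.

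Mir6363 lies inside Dubr, a long noncoding RNA gene, on the opposite strand, so transcription of Dubr reads its complement and not the hairpin. The hairpin (chr16:50727132-50727245, plus strand) was 631 bp inside the left edge of the down region, chr16:50726501-50743500. The region covered all 6.0 kb of Dubr and reached 10.7 kb ahead of its start. In the authors' deposited table the log2 fold change was -0.94 (0.52-fold), the FDR was 0.0115 and 31 of 89 windows (34.8%) were counted as down. The 300-base window at the start of Dubr held 19 CpG dinucleotides, a number reached by 28.1% of promoter windows.

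Mir8109 straddles the start of Neto2, which encodes an auxiliary subunit of kainate-type glutamate receptors, on the opposite strand. Of the 117 bases of its hairpin (chr8:85700905-85701021, plus strand), 48 overlap the RefSeq gene body of Neto2 and 69 lie ahead of it. The down region at chr8:85695501-85712000 contained the hairpin and reached 11.0 kb ahead of Neto2 and 5.5 kb into it. The log2 fold change was -0.78 (0.58-fold), the smallest in size of the 7, with 27 of 83 windows (32.5%) counted as down in the authors' deposited table. By its best window the value was -0.85 in the authors' deposited table. The 222 bases before Neto2, chr8:85700953-85701174 in GRCm38.p6, are shown on the minus strand, as Neto2 reads, with the complement of the hairpin in capitals. They show how the microRNA annotation runs into a CpG-rich promoter.
Neto2 upstream: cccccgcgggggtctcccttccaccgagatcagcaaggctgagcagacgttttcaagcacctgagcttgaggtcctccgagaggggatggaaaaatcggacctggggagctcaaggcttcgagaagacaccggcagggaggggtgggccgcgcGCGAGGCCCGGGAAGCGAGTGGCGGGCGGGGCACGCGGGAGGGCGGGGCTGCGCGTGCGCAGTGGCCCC

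These bases hold 22 CpG dinucleotides, 11 of them in capitals, and 70.3% G and C. RefSeq gives Neto2 a pair of 300-base promoter windows. The one that holds the hairpin is inside the region and has 36 CpG dinucleotides, and 6.23% of promoter windows held as many or more. The other starts further into the gene, 4242 bp outside the region, and has 0.

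**Figure D2:**
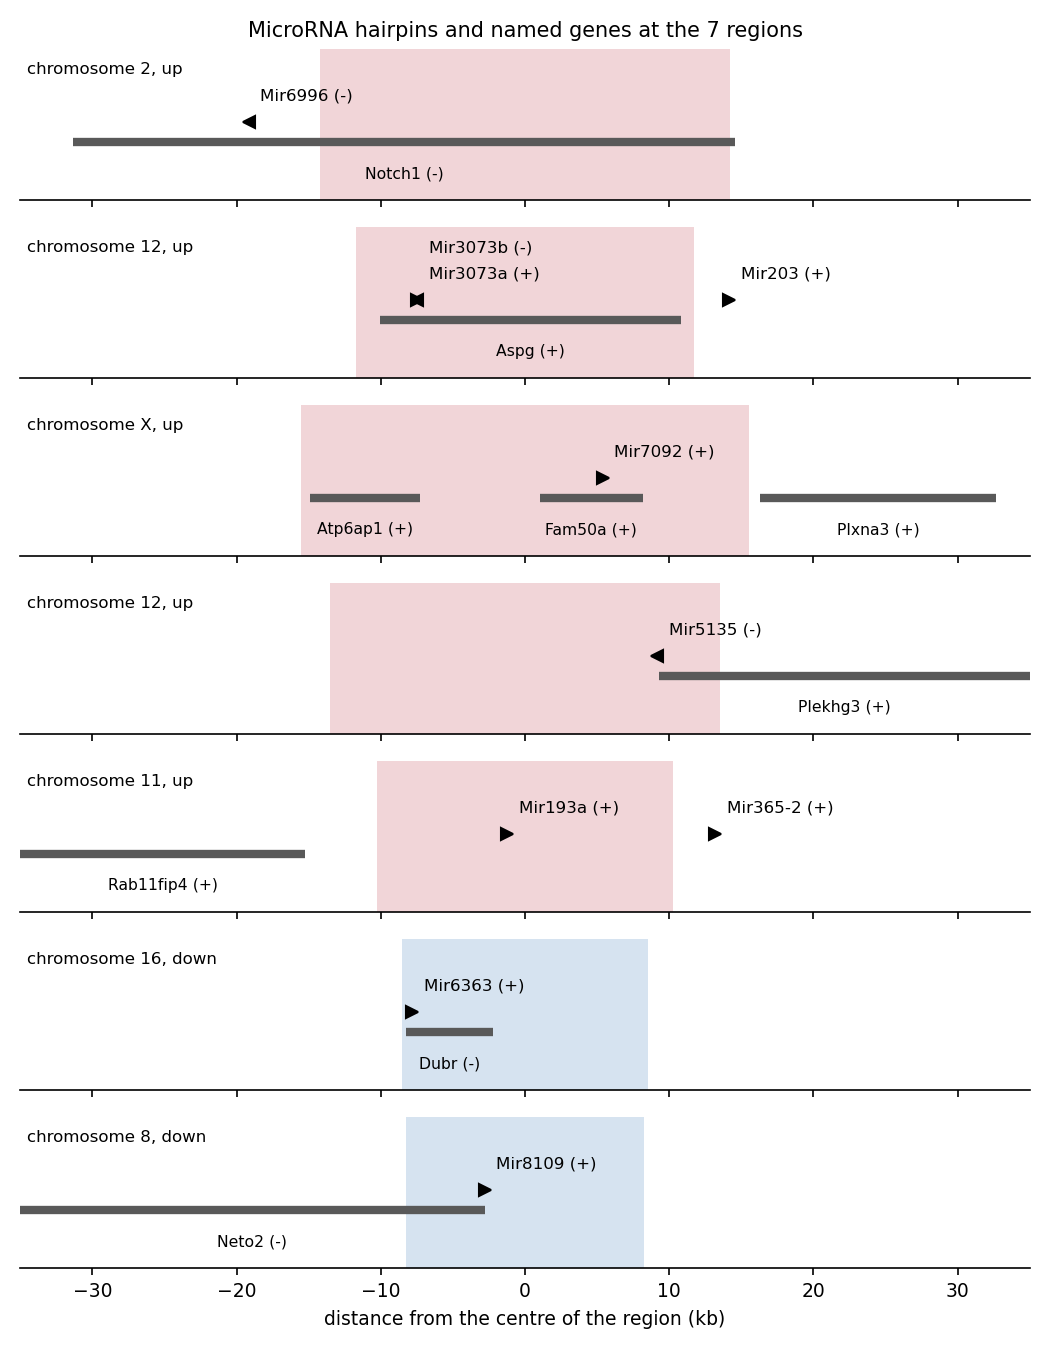
Each row is 1 region, shaded red for up and blue for down, on an axis of distance from its centre in kb. Grey bars are the RefSeq bodies of genes its row names, cut at the edges of the plot, and arrowheads are microRNA hairpins with their strand; Mir203, Mir365-2 and Mir6996 fall outside the shading.

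Across the members, 7 hairpins were inside their region and 3 were outside it. By place, Mir3073a, Mir6996 and Mir7092 were inside a host gene on its own strand. Mir3073b and Mir6363 were inside a gene on the other strand, Mir193a and Mir365-2 were clustered, and Mir203, Mir5135 and Mir8109 had no host gene that contains them. At both down regions the hairpin and the gene beside it were on opposite strands, as were Mir3073b and Mir5135 and their genes at up regions.

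**Figure D3:**
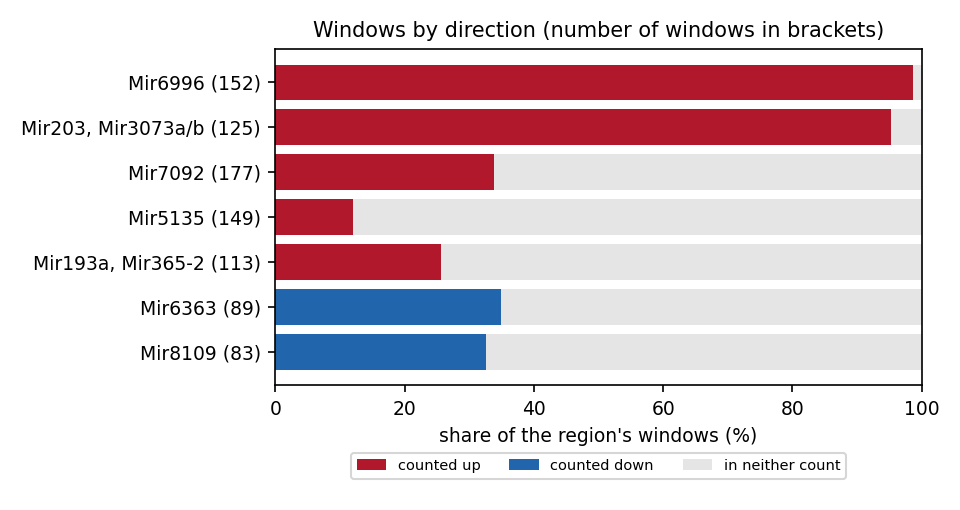
Bars give the share of each region's windows (x axis, percent) counted by the authors' deposited table as up (red), down (blue) or in neither count (light grey), with the number of windows in brackets. The Mir6996 and Mir203 regions reach 98.7% and 95.2%, and the other 5 lie between 12.1% and 34.8%.

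The regions differed in how many of their windows were counted, from nearly all at Mir6996 and Mir203 to a minority at the other 5. None of the 7 held windows of both directions, but almost no other listed region did either, so this was general in the list. The median share of windows counted in the region's direction was 33.9%, against 71.0% over all 378 regions. How a window came to be counted is not stated, so the remaining ones cannot be called unchanged. The 7 regions were 16.5 to 31.0 kb wide with a median of 23.5 kb, against 13.4 kb over all listed regions. A wide region has more room to name a gene, and the whole list reaches down to regions of 1 kb. The part of width in how these were found, and in the share of windows counted, was not tested.

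Base composition set Mir8109 and Mir7092 at opposite ends. Among 1005 RefSeq hairpins the median content of G and C was 51.7%. The Mir8109 hairpin had 80.3%, rank 6 from the top, and 20 CpG dinucleotides, the most of any hairpin in the table. Mir7092 had 29.4%, rank 1002, and 0 CpG. The other 8 members ran from 44.7% at Mir6363 to 62.0% at Mir5135, with 1 to 3 CpG dinucleotides each. These are properties of the sequence alone, and their part in the changes was not tested.

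**Figure D4:**
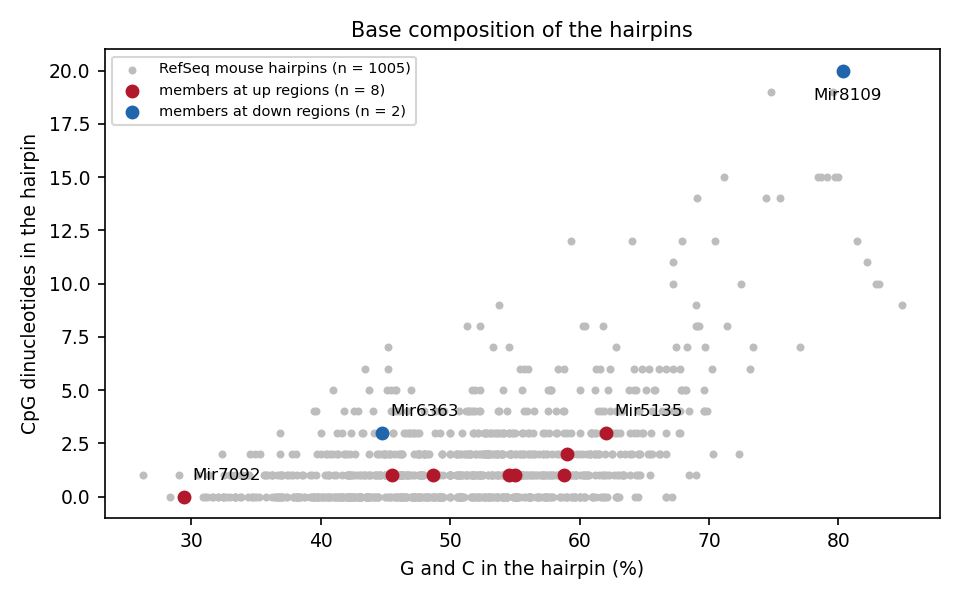
Each point is 1 of 1005 RefSeq mouse hairpins, with its content of G and C in percent on the x axis and its number of CpG dinucleotides on the y axis. Members at up regions are red and those at down regions blue; Mir8109 is at 80.3% with 20 and Mir7092 at 29.4% with 0.

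A further listed region lay within 1 Mb of 4 of the 7 regions, and each of the 4 had the same direction as its neighbour. For all listed regions the nearest one within 1 Mb had the same direction in 186 of 212 cases (87.7%), so shared direction was general in the list. The Mir203 region had an up neighbour 177 kb away with no gene named (log2 fold change 0.96), and the Mir6363 region a down neighbour 193 kb away at G730013B05Rik (-0.87), both from the authors' deposited table. The Mir7092 region's neighbour was 463 kb away, and that of Mir5135 is the Plekhg3 region above.

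Of 41 microRNA genes known in gut epithelium or in growth control, 3 were named by the table: Mir203, Mir193a and Mir365-2, all at up regions and all members already described. That list was drawn up with the members known, so the count supports nothing about the group. The other 38, among them the Mir192 and Mir194 genes abundant in gut epithelium and the epithelial Mir200 family, were named by no listed region. Of 20 genes of microRNA processing and silencing, such as Drosha, Dgcr8, Dicer1 and Ago2, 0 were named as up and 0 as down. For comparison, the table named 330 of 49997 RefSeq symbols (0.66%). A list of 20 with 0 named does not stand apart from that share. By RefSeq position rather than by name, 13 of 1228 RefSeq microRNA genes (1.06%) lay inside a listed region or within 5 kb of one. These shares are counted in unlike ways and are not compared. A gene missing from the table may have changed by less than its limit or carried too little mark to be tested.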

How the data were processed

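The members and lists were chosen with earlier results of these data known. The only file was the authors' deposited comparison of 4 control and 4 DKO samples, grouped by title, with 0 columns of per-sample values, so depth and precision are unknown and no test was run. Reads were handled with SICER 1.0.3, edgeR, Picard 1.141, Bowtie 0.12.7 and SAMtools 1.11 on build mm10, per the submitters' processing notes, which are used here without settings. Per the file headers, each region has window counts, a p-value with FDR, and log2 fold changes of a representative and a best window, all as deposited by the authors. The number of tests was recovered by inverting the Benjamini-Hochberg adjustment (largest relative difference 5.7e-15), after a check on simulated p-values. Rows hold unquoted commas, so every cell from the overlap field on was read. Mir3084-2 and Mir692-2, whose RefSeq position is far from the rows, were left out. Every member and the genes in its row are named, except 1 item that is not reported here. Positions, strands and sequences are RefSeq's (GRCm38.p6, the same build), promoter windows run from 250 bases before to 50 after a start, and transcript structure was not used, so exon and intron are not given. Python 3.11.15 and pandas 2.3.3 were used. The alternatives were a stricter FDR, a minimum change, the best window, the overlap field alone, RefSeq position, windows of 1 direction and 1 region per locus.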

Additional observations from a re-analysis of the deposited data

How the results depend on the processing

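At an FDR of 0.01 or lower, 2 of the 7 regions were left, those naming Mir6996 and Mir203. When the change had to be at least 1 on the log2 scale, 2 were left as well, again those regions. The count fell by construction under both limits. With the overlap field only there were 6 regions, with a RefSeq position inside the region 6, and with windows counted in a single direction 7. The median absolute log2 fold change was 0.93 under the best window and with 1 region per locus. At single regions the best window moved the value to 1.15 at Mir203 and -0.85 at Mir8109 in the authors' deposited table, and changed no direction. No paired analysis was possible because the table has no per-sample values, and no sample could be left out for the same reason. A region with low depth or little mark would not be listed, so absence from the list says nothing of a microRNA gene.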

Other observations

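RefSeq places 13 of its 1228 microRNA genes inside a listed region or within 5 kb of one, and 10 of these are the members. The other 3 were found by position after the table was seen. Gm51287, whose synonym is Mir12178, lies inside an up region on chromosome 1 with a value of 0.90 on the log2 scale, per the authors' deposited table. Gm51289, whose synonym is Mir203b, lies at the position of Mir203, 2387 bp from the same up region. Mir692-3, whose synonyms include Mir692-2b, lies inside a down region on chromosome 13 with -0.90 on the same scale, per the authors' deposited table.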
